A study of Mus musculus with 24 samples.

Results

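Small intestinal organoids of C57BL/6 mice were compared 96 h after 6 Gy of gamma irradiation with control organoids of the same time point that had not been irradiated. Organoids are cultured pieces of gut epithelium that form budding crypts around a closed lumen. Both groups were grown in ENR medium, which supplies EGF, Noggin and R-spondin, and the dose was given 3 days after reseeding. The groups were 4 irradiated samples at 96 h and 4 control samples at 96 h, which are 8 of the 24 samples of the series. The other 16 were irradiated and control samples at 24 h and 48 h, again 4 of each, and every time had its own controls. The comparison asks which genes differed at 96 h, and their values at the earlier times are set beside it. Total RNA was measured on Illumina bead arrays, in which each probe gives 1 intensity per array. The labels do not say whether replicates came from separate mice or cultures. The limma p-values thus measure only the spread between samples within groups, pooled over all 24 arrays.

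RNA was taken from whole organoids, so fewer cells of a type and less RNA per cell cannot be told apart in any result. All 8 arrays at 96 h were on 1 chip, with irradiated and control samples at different positions on it, so position and irradiation cannot be told apart. Each time was on a chip of its own, so time and chip cannot be told apart where levels of different times are set side by side. Between 10971 and 13231 probes were detected on the irradiated arrays and between 11727 and 13831 on the control arrays, out of 25697. The means were 12117.5 ± 1250.76 probes in irradiated organoids and 12991.8 ± 895.194 probes in control organoids (SD, n = 4 each). The difference was not larger than the spread between arrays (exact two-sided permutation test, p = 0.229, with 0.0286 the smallest possible over 70 splits). Irradiated replicates 3 and 4 and control replicate 4 had the fewest detected probes, and counts without these 3 arrays are given beside the main ones, an alternative chosen after seeing the data. Arrays of a group correlated at 0.970 to 0.985 (irradiated) and at 0.954 to 0.980 (control) over all genes tested. The first 2 principal components, the axes of largest variance among the 8 arrays, held 32.36% and 28.68% of it. Irradiated arrays lay at -2.68 to 31.34 on the first and at -5.52 to 20.29 on the second. Control arrays lay at -25.10 to 0.0075 and at -30.78 to 20.99, so the groups overlapped on both. The number of arrays and the signal over background limit the precision.

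At 96 h, 186 of 10798 genes were higher in irradiated organoids (1.72% of those tested) and 366 were lower (3.39%). The test was limma's moderated test with 1 mean per group over all 24 arrays. A gene was called at a Benjamini-Hochberg adjusted p under 0.05 over all genes tested. A difference of at least 2-fold was found for 43 of the higher genes (0.398%) and 69 of the lower ones (0.639%). For 815 genes the groups lay fully apart (7.55% of those tested), 318 of them higher (2.94%) and 497 lower (4.60%). Without the 3 arrays with the fewest detected probes, 85 genes were called higher and 139 lower. With the 8 arrays at 96 h alone in the fit, 52 were called higher and 113 lower. That fit called 20 hypoxia and glycolysis genes lower, 6 of the stress responses lower and 11 of fetal-like epithelium higher, beside 30, 9 and 19 with all arrays. The balance depended on the scaling. When arrays were scaled to a common median instead of a common distribution, the median of all genes shifted to -0.21 (log2), and 71 genes were called higher and 559 lower. The higher genes then made up 11.3% of the calls, against 33.7% in the main setting.

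Many of the largest falls were those of genes switched on by low oxygen. Cells sense oxygen through prolyl hydroxylases that mark the alpha subunits of the hypoxia-inducible factors for destruction. When oxygen is short, these factors persist, bind the core letters ACGTG beside genes of glucose uptake, glycolysis, angiogenesis and matrix hydroxylation, and raise their transcription. Dense cultures, and the epithelium beside the gut lumen, are known to be low in oxygen. Of 35 genes of a hypoxia and glycolysis list that were tested, 30 were lower in irradiated organoids at 96 h and 0 higher (85.7%, against 3.39% lower among all genes tested). Like every list here, it was written with earlier results of these data known, so such shares are no independent test. The median log2 fold change of the list was -0.87, beside -0.0034 for all genes tested. With single arrays left out, 26 to 30 genes of the list were lower, without the 3 arrays with the fewest detected probes 23, and with median scaling 31.

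Promoters of 5 of these genes are shown because ACGTG was looked for in them and their genes fell together. Each is the 250 bases before the transcription start in RefSeq, build GRCm38.p6, written 5′ to 3′ on the gene's strand. Capitals mark ACGTG or its reverse complement CACGT, and overlapping matches were counted separately.
Mgarp promoter (chr3:51396548-51396797, minus strand): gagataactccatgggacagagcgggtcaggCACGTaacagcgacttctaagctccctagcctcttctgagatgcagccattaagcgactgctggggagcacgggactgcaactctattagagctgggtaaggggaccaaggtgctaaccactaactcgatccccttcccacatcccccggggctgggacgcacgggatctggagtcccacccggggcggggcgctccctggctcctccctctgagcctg
Egln3 promoter (chr12:54203875-54204124, minus strand): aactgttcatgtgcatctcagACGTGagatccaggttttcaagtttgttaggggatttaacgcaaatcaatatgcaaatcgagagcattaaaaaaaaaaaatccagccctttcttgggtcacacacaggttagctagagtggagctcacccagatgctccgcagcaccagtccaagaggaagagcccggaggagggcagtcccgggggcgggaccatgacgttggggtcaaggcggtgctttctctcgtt
Ankrd37 promoter (chr8:45999851-46000100, minus strand): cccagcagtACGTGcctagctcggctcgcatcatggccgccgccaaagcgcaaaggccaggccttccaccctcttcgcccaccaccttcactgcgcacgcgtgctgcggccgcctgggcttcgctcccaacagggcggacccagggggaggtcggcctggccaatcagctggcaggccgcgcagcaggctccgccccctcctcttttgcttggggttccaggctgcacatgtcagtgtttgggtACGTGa
Slc16a3 promoter (chr11:120948817-120949066, plus strand): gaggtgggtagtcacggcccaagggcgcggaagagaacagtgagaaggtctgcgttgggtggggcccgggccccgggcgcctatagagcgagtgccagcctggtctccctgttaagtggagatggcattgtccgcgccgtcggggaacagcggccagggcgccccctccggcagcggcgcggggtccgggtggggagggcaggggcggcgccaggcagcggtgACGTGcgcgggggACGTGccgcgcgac
P4ha2 promoter (chr11:54100674-54100923, plus strand): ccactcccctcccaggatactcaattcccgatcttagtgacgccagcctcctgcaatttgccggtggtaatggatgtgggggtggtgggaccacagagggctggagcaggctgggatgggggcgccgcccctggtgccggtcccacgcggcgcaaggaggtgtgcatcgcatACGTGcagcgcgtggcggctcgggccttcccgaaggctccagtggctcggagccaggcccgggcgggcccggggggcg
The letters were found once in the windows of Mgarp, Egln3 and P4ha2, and in 2 places in those of Ankrd37 and Slc16a3. In the Slc16a3 window the matches began 27 and 14 bases before the start, and in the Egln3 window the match began 229 bases before it. ACGTG or CACGT lay in 16.6% of the 32851 RefSeq promoter windows of this length. Of the lower hypoxia genes, 28 had a promoter entry, and 17 of these had a match in any of their entries (60.7%). Among all tested genes with an entry the share was 25.3% (2109 of 8338). A match describes the letters in the window and does not show that a factor bound there.

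The oxygen sensors themselves were among the lower genes. Egln3, a prolyl hydroxylase that is itself induced by low oxygen, had normalized log2 intensities of 8.48, 8.18, 8.22 and 7.87 in irradiated organoids, against 10.60, 10.42, 10.23 and 10.11 in control organoids. The groups lay far apart. The log2 fold change was -2.15 ± 0.13 (SE), or 4.45-fold lower, with an adjusted p of 7.51e-11 in limma, and a second probe gave -2.13. Its relative Egln1 fell by 1.15 on the log2 scale (limma adjusted p = 0.00132). Egln3 was already lower at 24 h and 48 h, by log2 fold changes of -1.07 and -0.78, but the fall at 96 h was larger than at either time (differences of -1.08 and -1.37, limma adjusted p = 0.000288 and 7.48e-05).

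The gene with the largest fall of the whole comparison was 4930583H14Rik, whose current symbol is Mgarp and which encodes a mitochondrial protein. Its intensities were 6.19, 5.96, 5.0 and 4.78 in irradiated organoids, against 9.57, 9.49, 10.34 and 10.07 in control organoids. It was detected on 2 of 4 irradiated arrays and on all 4 control arrays. The log2 fold change was -4.38 ± 0.27 (limma adjusted p = 1.75e-10), and it was -3.45 at 48 h and -3.48 at 24 h. Neither difference between times passed the test (-0.90 with an adjusted p of 0.13 against 24 h, and -0.94 with 0.20 against 48 h).

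Ankrd37, an ankyrin repeat gene known as a hypoxia target, had 8.21, 8.29, 8.06 and 8.10 in irradiated organoids, against 9.78, 9.98, 10.34 and 10.38 in control organoids. It was 3.87-fold lower at 96 h, and its log2 fold changes of -1.95 ± 0.17 at 96 h, -1.68 at 48 h and -2.02 at 24 h lay close together. Vegfa, the main angiogenic growth factor, had 8.41, 8.60, 8.35 and 8.58 in irradiated organoids, against 9.78, 9.65, 10.33 and 10.31 in control organoids. Its groups did not overlap, and control replicates 3 and 4 were the higher pair. Vegfa fell by 1.53 on the log2 scale at 96 h (limma adjusted p = 1.12e-07), more than at 24 h or 48 h (differences of -0.76 and -0.79, limma adjusted p = 0.0145 and 0.0265).

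Genes of lactate export, sugar uptake and glycolysis fell as well. Slc16a3, which exports lactate, was at 5.30, 5.18, 4.76 and 4.87 in irradiated organoids, against 7.32, 7.18, 6.68 and 6.70 in control organoids, a fitted log2 fold change of -1.95 ± 0.19. It was detected on 1 of 4 irradiated arrays and on all 4 control arrays, so the size of this fall rests mostly on signals at background. A dimmer probe of Slc16a3 gave -0.23 and was not called. Slc2a1, the basal glucose transporter, was at 10.25, 10.30, 10.22 and 10.24 in irradiated organoids, against 11.10, 11.09, 11.09 and 11.18 in control organoids. Its log2 fold change of -0.87 ± 0.09 was small but many times the spread within either group. Pdk1, which keeps pyruvate out of mitochondria, fell by 1.03, and Aldoc, a brain-type aldolase, fell by 1.40. Among the abundant glycolytic enzymes, Aldoa fell by 0.62, Gapdh by 0.61 and Ldha by 0.44, so a gene often used for scaling was itself 1.53-fold lower. With the 8 arrays at 96 h alone in the fit, these 3 calls were lost (limma adjusted p = 0.0621, 0.0687 and 0.249). The Ldha call was lost without irradiated replicate 3 (adjusted p = 0.107), control replicate 1 (0.0695) or control replicate 3 (0.0750), with log2 fold changes of -0.35, -0.38 and -0.41.

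Of the 5 members not called, Pfkfb4, which makes a regulator of glycolysis, had a log2 fold change of -0.64 with wide control values of 8.47, 8.34, 9.67 and 9.58. It was called without control replicate 2 (-0.86, limma adjusted p = 0.0307). Pgam1, an enzyme of glycolysis, was at -0.32, Anxa13, an annexin, at 0.11 and Pfkfb3 at -0.08. The Pgk1 probe gave -0.21 but was detected on 0 of 4 irradiated and 2 of 4 control arrays, so it measured the gene poorly. Pfkl, a subunit of phosphofructokinase, fell by 1.01, while a dimmer probe of Pfkl gave 0.04.

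Matrix and acid-base genes of the same response were lower too. P4ha2, a collagen prolyl hydroxylase, was at 6.38, 5.52, 6.44 and 5.65 in irradiated organoids, against 8.12, 7.90, 7.66 and 7.74 in control organoids (log2 fold change -1.86 ± 0.25). Car9, a carbonic anhydrase at the cell surface, fell by 0.97, and Ndrg1, a stress-responsive gene, fell by 0.85. Adm, which encodes the vascular peptide adrenomedullin, was not detected on any array of either group at 24 h or 48 h. At 96 h it was not detected on any irradiated array and on all 4 control arrays, which gives at least 1.28-fold lower in irradiated organoids. That bound sets the control mean against the higher of each irradiated array's lowest signal above background and the probe's own signal, and it is used for every such gene. Higd1a, Ero1l, Bnip3l and Ak3l1, the last with the current symbol Ak4, fell by 1.42, 1.30, 1.01 and 1.96 on the log2 scale. The Higd1a call was lost without the 3 arrays with the fewest detected probes (limma adjusted p = 0.117). Of the 35 genes, 9 had a lower effect at 96 h than at 24 h and 10 a lower effect than at 48 h, and 0 a higher one (background 6.95% and 2.71% lower, 4.51% and 0.815% higher).

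**Figure D1:**
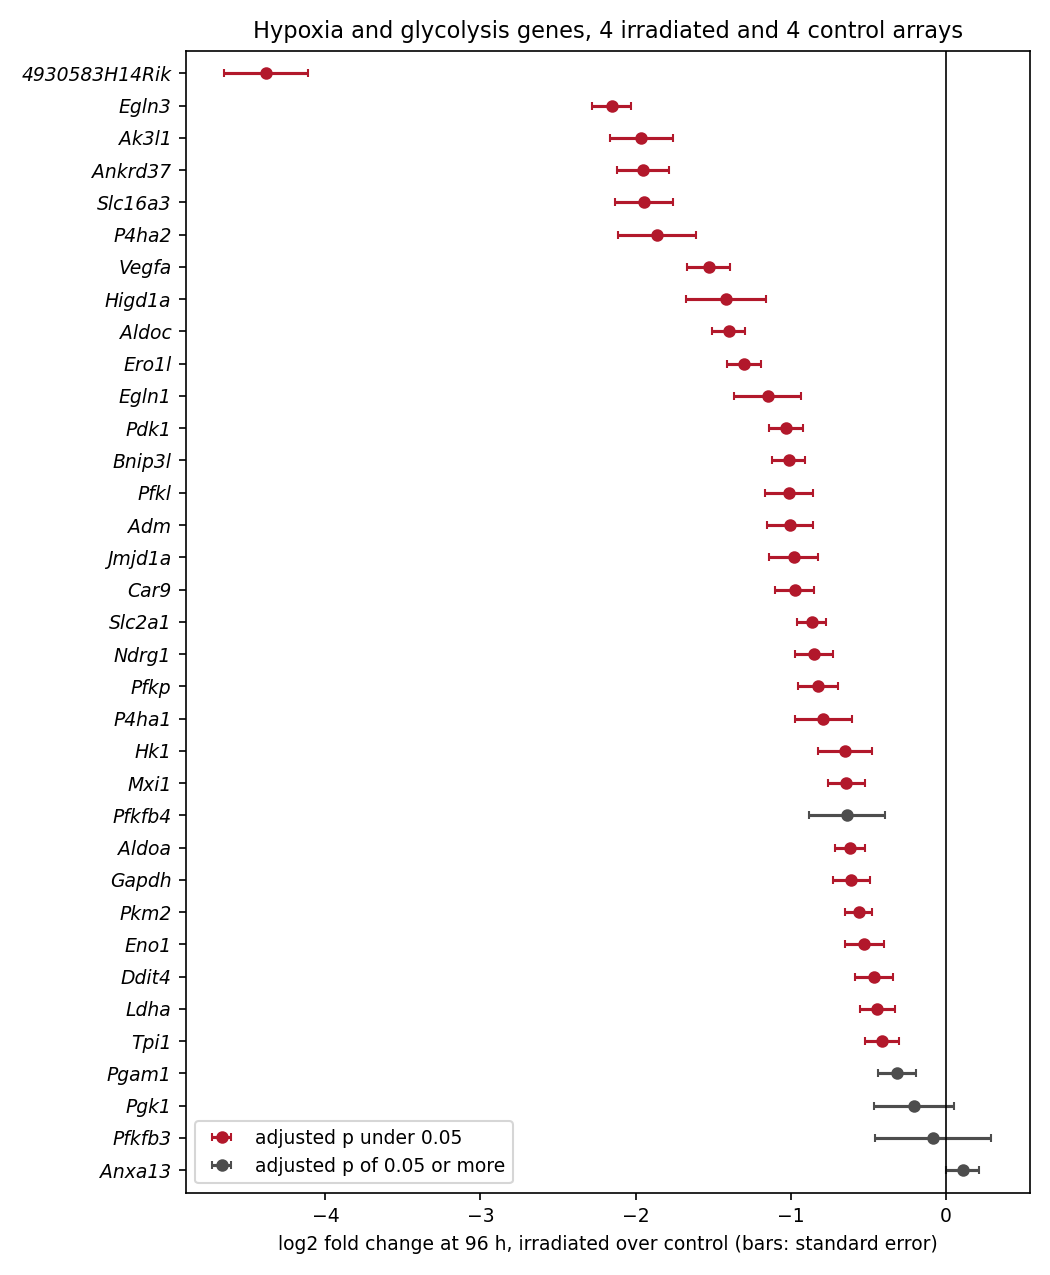
Log2 fold changes of the 35 tested hypoxia and glycolysis genes at 96 h, irradiated over control, with standard errors (4 arrays per group). Red points are the 30 genes with an adjusted p under 0.05 and grey points the 5 others, and 34 of the 35 points lie left of 0.

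A second group of lower genes belonged to the integrated stress response, in which Atf4 raises genes of amino acid supply and stress signalling when translation is slowed, and the unfolded protein response, which adjusts folding in the endoplasmic reticulum. Of 41 tested genes, 9 were lower and 0 higher (22.0% lower, background 3.39%), with a median log2 fold change of -0.13. Without the 3 arrays with the fewest detected probes, 6 were lower. Chac1, which degrades glutathione, was at 5.54, 6.04, 4.97 and 5.11 in irradiated organoids, against 7.49, 6.84, 8.11 and 7.76 in control organoids. It was detected on 2 of 4 irradiated arrays and on all 4 control arrays, with a fitted log2 fold change of -2.14 ± 0.27 (limma adjusted p = 1.08e-05). Stc2, a secreted glycoprotein, was at 8.70, 8.22, 8.63 and 8.06 in irradiated organoids, against 10.36, 10.36, 9.85 and 10.02 in control organoids. Stc2 had log2 fold changes of -1.74 ± 0.17 at 96 h, -1.21 at 48 h and -2.13 at 24 h. Trib3, a pseudokinase that dampens the response, fell by 1.71, Atf5 by 0.84 and Atf3 by 0.96. A dimmer probe of Trib3 gave -0.25 and was not called.

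The calls did not extend to the whole response. Atf4 itself had a log2 fold change of 0.12, with values of 11.46, 11.23, 11.46 and 11.17 in irradiated organoids, against 11.82, 11.59, 10.70 and 10.71 in control organoids, where replicates 3 and 4 lay well below replicates 1 and 2. Asns, which makes asparagine, was at -0.24 (limma adjusted p = 0.19) at 96 h and had been lower at 24 h (-0.58). Atf3 was lower at 96 h and not at the earlier times (0.01 at 24 h and -0.03 at 48 h), and both differences between times passed the test (-0.98 and -0.93, limma adjusted p = 0.00495 and 0.0173). Atf3 was detected on all 4 control arrays at 96 h and on 0 or 1 array of every other group. The promoter of Chac1 is shown because TGATGNAA, the composite letters that Atf4 and C/EBP partners are known to bind, was looked for in this list. Of the 2 lower genes with the largest falls and 1 window each, Chac1 held 1 match and Stc2 held 0, which says only that these letters are not in that window. The Chac1 sequence is the same kind of RefSeq window, in build GRCm38.p6, with capitals marking a match on the reverse strand (TTNCATCA).
Chac1 promoter (chr2:119350992-119351241, plus strand): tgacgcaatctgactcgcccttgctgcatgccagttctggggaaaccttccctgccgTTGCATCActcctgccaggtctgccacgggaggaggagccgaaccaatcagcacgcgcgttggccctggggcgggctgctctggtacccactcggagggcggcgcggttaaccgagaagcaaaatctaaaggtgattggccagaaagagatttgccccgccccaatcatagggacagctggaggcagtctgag
The match began 193 bases before the start. These letters lay in 3.45% of all windows, in 2.55% of tested genes with an entry, and in 3 of the 9 lower genes of the list (33.3%).

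Several single genes fell at 96 h that had not been called lower earlier. Dusp1, an immediate-early phosphatase that turns off MAP kinases, was at 7.32, 7.13, 7.43 and 6.89 in irradiated organoids, against 9.13, 9.0, 8.73 and 9.21 in control organoids. It was 3.54-fold lower (log2 fold change -1.82 ± 0.13, limma adjusted p = 2.10e-09). At 48 h Dusp1 was higher in irradiated organoids, by 0.70, and at 24 h it was at 0.07. The differences between times were -2.52 against 48 h and -1.89 against 24 h (limma adjusted p = 3.00e-08 and 2.25e-06). Slc30a10, a manganese exporter, was at 6.02, 5.28, 4.97 and 4.86 in irradiated organoids, against 7.56, 7.31, 7.13 and 7.08 in control organoids. Its log2 fold changes were -1.99 ± 0.19 at 96 h, 0.22 at 48 h and 0.20 at 24 h. Only its fall at 96 h was called, and the differences of -2.21 and -2.19 between times passed the test (limma adjusted p = 4.18e-05 and 1.57e-05).

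Scd1, which makes monounsaturated fatty acids, was at 8.87, 8.76, 8.78 and 8.76 in irradiated organoids, against 9.84, 9.69, 9.82 and 10.04 in control organoids, a log2 fold change of -1.05 ± 0.08. It had been at -0.20 at 24 h and -0.14 at 48 h, and the differences of -0.85 and -0.91 passed the test (limma adjusted p = 6.16e-05 and 8.15e-05). Slc39a14, an importer of zinc, iron and manganese, fell by 1.08, though a dimmer probe of it gave -0.13. The Slc39a14 call was lost with the 8 arrays at 96 h alone in the fit (limma adjusted p = 0.0701). It was also lost without the 3 arrays with the fewest detected probes (-0.96, limma adjusted p = 0.104). Among 19 tested genes of metallothioneins and metal transporters, 3 were lower and 1 higher (15.8% and 5.26%, background 3.39% and 1.72%), and the metallothioneins Mt1 and Mt2 were at -0.29 and -0.26 (limma adjusted p = 0.31 and 0.33).

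Other large falls were those of digestive and metabolic genes. Ctrb1, a pancreatic-type digestive protease, was at 6.36, 6.10, 5.95 and 6.14 in irradiated organoids, against 8.20, 8.0, 8.22 and 8.57 in control organoids. It was 4.32-fold lower, and the log2 fold change of -2.11 ± 0.14 was larger than the -0.70 measured at both earlier times (difference -1.41 against each, limma adjusted p = 6.14e-05 and 0.000171). Mpp4, a membrane scaffold gene, was not detected on any irradiated array and was at least 2.03-fold lower in irradiated organoids. Cyp2s1, a cytochrome P450 known to respond to hypoxia and to aryl hydrocarbons, fell by 1.72.

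**Figure D2:**
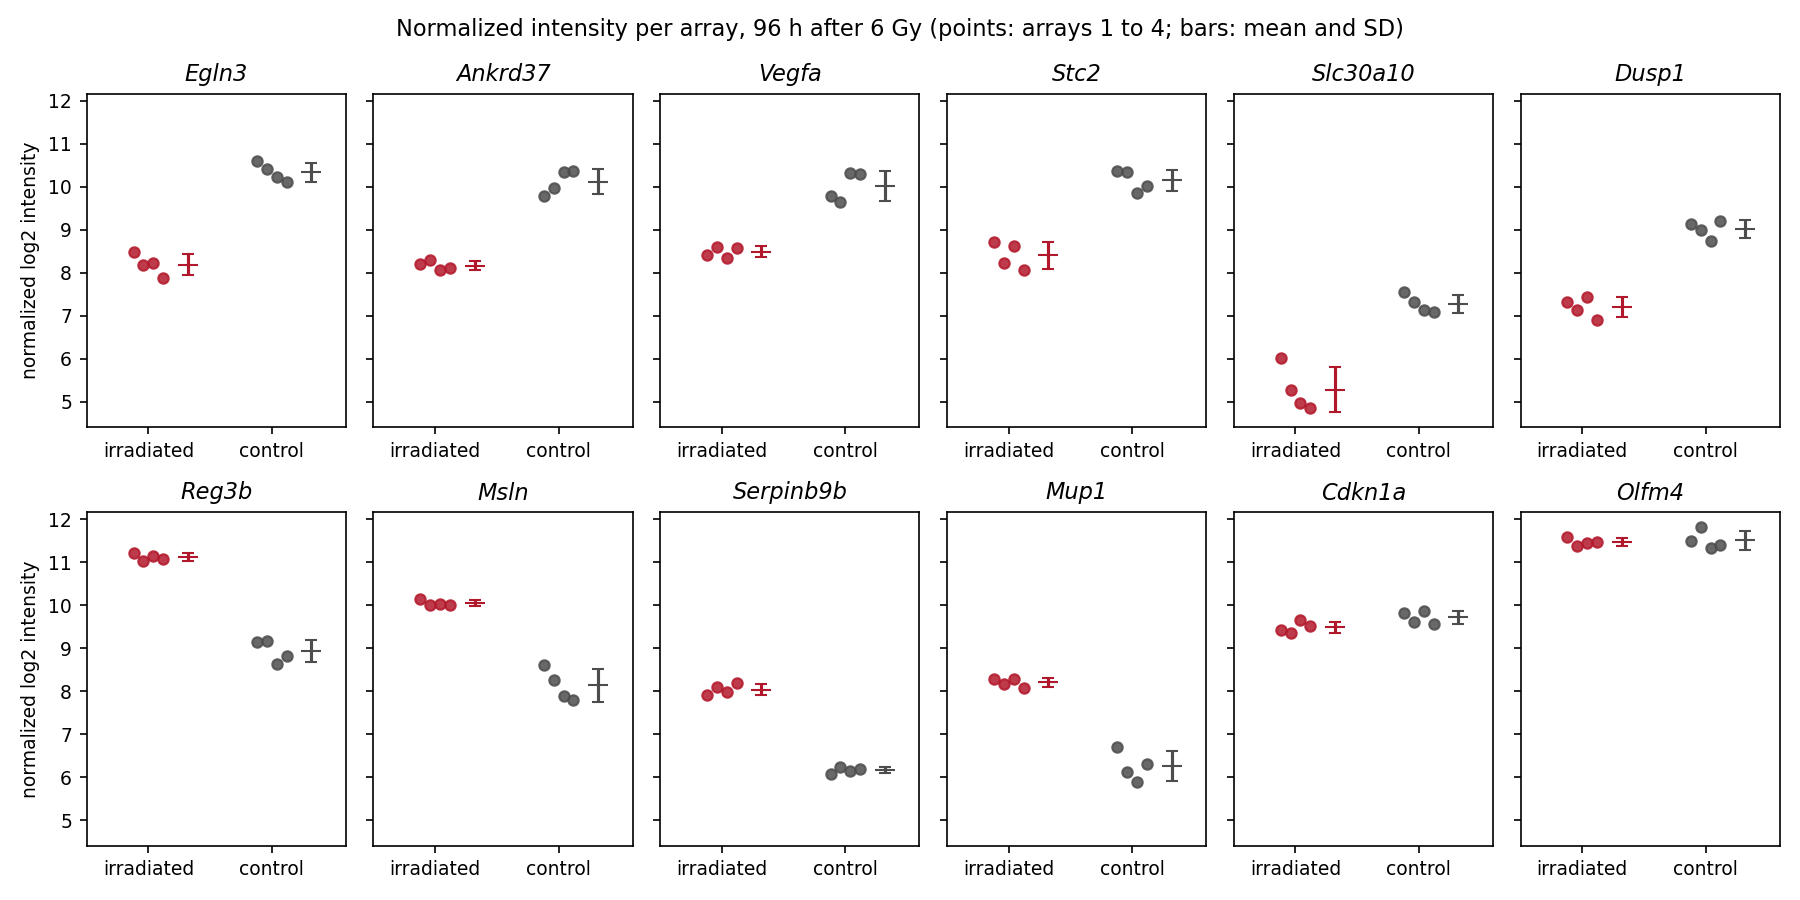
Normalized log2 intensity of 12 genes on each of the 4 irradiated (left) and 4 control (right) arrays at 96 h, with group means and SD beside the points. The groups of the first 10 genes do not overlap, as in Egln3 with 7.87 to 8.48 in irradiated organoids and 10.11 to 10.60 in control organoids, while those of Cdkn1a and Olfm4 do. Levels of different probes are not comparable.

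Among the lists, that of regenerating, fetal-like epithelium had the largest share of higher genes. After injury, crypts are known to switch for some days to a program shared with fetal gut, in which annexins, Ly6a and small proline-rich proteins are made while stem cell genes are low. Of 38 tested genes of that list, 19 were higher and 1 lower in irradiated organoids at 96 h (50.0% higher, background 1.72%), with a median log2 fold change of 0.54. With single arrays left out, 16 to 20 were higher, and without the 3 arrays with the fewest detected probes 13. With median scaling 13 were higher. The list had 27 higher genes at 48 h and 25 at 24 h (background 7.3% and 11.2%).

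Msln, a surface protein of mesothelium and fetal gut, was at 10.16, 10.00, 10.04 and 10.00 in irradiated organoids, against 8.62, 8.27, 7.89 and 7.79 in control organoids. It was 3.76-fold higher (log2 fold change 1.91 ± 0.14, limma adjusted p = 2.23e-09). Its effects at 48 h and 24 h were 1.63 and 1.56, and neither difference between times passed the test. Anxa1, a phospholipid-binding annexin of mucosal repair, was at 8.34, 8.37, 8.51 and 8.54 in irradiated organoids, against 7.39, 7.32, 7.08 and 7.50 in control organoids. Ly6a, the surface antigen also called Sca-1, was at 9.65, 9.80, 9.82 and 9.48 in irradiated organoids, against 8.89, 8.51, 8.78 and 8.53 in control organoids. The groups of both genes were apart, with log2 fold changes of 1.12 ± 0.10 for Anxa1 and 1.01 ± 0.12 for Ly6a.

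For some of these genes the difference was smaller than at the earlier times. The Ly6a effect at 96 h was below that at 24 h by 1.10 (2.11 at 24 h, limma adjusted p = 0.000224), and the Anxa1 effect was below it by 0.73 (1.85 at 24 h, limma adjusted p = 0.00193). Sprr1a, a cross-linked envelope protein, had effects of 0.77 at 96 h, 2.09 at 48 h and 1.33 at 24 h, and the difference of -1.32 against 48 h passed the test (limma adjusted p = 0.00130). Its call at 96 h was lost with median scaling (0.48, adjusted p = 0.13). Anxa3, Lgals3, which encodes galectin 3, and Tm4sf4, a tetraspanin-like protein, rose by 1.26, 1.22 and 1.17. Il1rn, the antagonist of the interleukin 1 receptor, rose by 1.30 with its brightest probe, while its other probes gave 0.05 and 0.19 and were not called. Mal, a raft protein of apical sorting, rose by 1.18 but missed the threshold without the 3 arrays with the fewest detected probes (adjusted p = 0.0553). The single lower member was Upk3b, a uroplakin of urothelium and mesothelium, at 6.26, 6.03, 4.92 and 4.82 in irradiated organoids, against 7.90, 8.58, 8.60 and 8.63 in control organoids (log2 fold change -2.91 ± 0.27).

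Growth factor and YAP signals are known to accompany that program. Areg, an EGF receptor ligand, was at 9.59, 9.94, 9.96 and 9.64 in irradiated organoids, against 9.40, 9.09, 8.95 and 9.11 in control organoids (log2 fold change 0.65 ± 0.12, limma adjusted p = 0.00160). It was the 1 called gene of 6 tested EGF receptor ligands, and its effect was smaller than at 24 h and 48 h (2.29 and 1.68, differences of -1.64 and -1.03, limma adjusted p = 4.30e-06 and 0.00104). With median scaling the Areg call was lost (0.36, adjusted p = 0.27). Of 15 tested YAP targets, 3 were higher and 1 lower (20.0% and 6.67%, background 1.72% and 3.39%). The higher ones were Msln, Areg and Edn1, which encodes a vasoactive peptide and rose by 0.98, and the lower one was Dusp1. Without the 3 arrays with the fewest detected probes, 1 of them was higher.

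The gene with the largest rise was Reg3b, a lectin of the antimicrobial Reg family. It was at 11.22, 11.03, 11.16 and 11.09 in irradiated organoids, against 9.14, 9.18, 8.62 and 8.81 in control organoids. It was 4.56-fold higher (log2 fold change 2.19 ± 0.11, limma adjusted p = 1.04e-11), and a second probe gave 1.89. Its effect exceeded that of 24 h by 0.77 (1.42 at 24 h, limma adjusted p = 0.00187). Its relatives were not called. Reg3g was at 9.14, 9.13, 8.91 and 9.33 in irradiated organoids, against 8.89, 8.83, 9.12 and 9.12 in control organoids, and Reg3a and Reg1 had log2 fold changes of -0.15 and -0.02. None of the 3 was called at 96 h (limma adjusted p = 0.47, 0.44 and 0.93), whereas all of them had been higher at 24 h (0.59, 0.59 and 0.62). Each of those falls between times passed the test (-0.45, -0.74 and -0.65, limma adjusted p = 0.0271, 0.000565 and 0.00282).

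Of 13 tested Reg genes and alarmins, 4 were higher and 0 lower (30.8% higher, background 1.72%). Besides Reg3b these were Il33, Il18 and Reg4. Il33, a nuclear cytokine released by damaged cells, was at 6.58, 6.45, 6.51 and 6.45 in irradiated organoids, against 5.20, 5.13, 5.15 and 4.95 in control organoids. It was detected on 4 irradiated arrays and on 1 control array. The fitted log2 fold change of Il33 was 1.39 ± 0.19 (limma adjusted p = 2.90e-05), with 3 of 4 control values not above background. Il18, a cytokine of the inflammasome, rose by 0.85. Reg4 rose by 0.44, but its call was lost without any 1 of irradiated replicates 1, 3 and 4 and control replicates 3 and 4 (0.34 to 0.46, adjusted p between 0.0555 and 0.147), and with median scaling (0.15, adjusted p = 0.61).

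Further large rises came from genes with near-identical copies in the mouse genome, for which a probe may pick up several relatives. The major urinary proteins, small carriers of odorants made mainly by liver, were represented by Mup1, Mup5 and Mup2. Mup1 was at 8.29, 8.18, 8.30 and 8.08 in irradiated organoids, against 6.71, 6.12, 5.89 and 6.31 in control organoids (log2 fold change 1.96 ± 0.15). Mup5 and Mup2 rose by 1.82 and 1.46, with group values that did not overlap, and a dimmer probe of Mup5 gave 0.12. The placental prolactin relatives Prl2c5 and Prl2c4 were not detected on any control array and on all 4 irradiated arrays, at least 2.80-fold and 2.23-fold higher in irradiated organoids. Prl2c3, detected on 1 of 4 control arrays, rose by 1.53. RefSeq joins Prl2c4 with Prl2c3, so these probes may not count different genes. For none of these 6 genes did the effect differ from that at 48 h by the test (limma adjusted p of 0.074 or more).

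Serpinb9b, an intracellular serine protease inhibitor of the granzyme inhibitor group, was at 7.91, 8.09, 7.98 and 8.18 in irradiated organoids, against 6.07, 6.24, 6.15 and 6.19 in control organoids. It was 3.68-fold higher (log2 fold change 1.88 ± 0.13). Lor, which encodes the skin envelope protein loricrin, was at 8.0, 7.72, 7.47 and 7.72 in irradiated organoids, against 6.11, 5.45, 6.87 and 5.24 in control organoids. The Lor control values spread over more than a unit, and its log2 fold change of 1.81 had a standard error of 0.33 (limma adjusted p = 0.00126).

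Most p53 targets that had been higher earlier were no longer called at 96 h. p53 is stabilised after DNA breaks and is known to raise genes of arrest, repair and death within hours. Of 42 tested targets, 6 were higher and 0 lower at 96 h (14.3% higher, background 1.72%), with a median log2 fold change of 0.12. At 48 h 26 were higher and at 24 h 31 (background 7.3% and 11.2%). The effect at 96 h was lower than at 24 h for 18 targets and lower than at 48 h for 10 (background 6.95% and 2.71%), and higher for 3 and 1. All 6 calls at 96 h were lost with median scaling. They were also lost with the 8 arrays at 96 h alone in the fit, at the same log2 fold changes (adjusted p between 0.0679 and 0.226). Without the 3 arrays with the fewest detected probes 5 targets were higher. The calls of Ccng1 and Pdrg1 were lost there (0.62 and 0.47, limma adjusted p = 0.0561 and 0.083).

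Cdkn1a, the p21 inhibitor of cyclin-dependent kinases, was at 9.42, 9.35, 9.65 and 9.52 in irradiated organoids, against 9.83, 9.60, 9.87 and 9.57 in control organoids at 96 h. The groups overlapped, and the log2 fold change of -0.23 ± 0.12 was not called (limma adjusted p = 0.32). At 48 h and 24 h it had been 1.29 and 1.14 higher, and the differences of -1.52 and -1.37 passed the test (limma adjusted p = 1.38e-05 and 1.57e-05). Group means of Cdkn1a were 10.07, 9.91 and 9.49 at 24 h, 48 h and 96 h in irradiated organoids, and 8.93, 8.62 and 9.72 in control organoids. The irradiated mean was lowest and the control mean highest at 96 h, with each time on its own chip. Phlda3, a repressor of Akt, was at 0.48 (adjusted p = 0.14) after 1.79 at 24 h, and Bax, a pore-forming death gene, was at 0.25 (0.14) after 0.78. Both differences against 24 h passed the test (-1.31 and -0.53, limma adjusted p = 0.00151 and 0.0124). The Phlda3 call was gained without irradiated replicate 2 (0.62, adjusted p = 0.0462).

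The targets called higher at 96 h were Zmat3, Trp53inp1, Plk2, Eda2r, Ccng1 and Pdrg1. Zmat3, an RNA-binding protein, was at 8.93, 8.34, 8.72 and 8.60 in irradiated organoids, against 8.03, 8.08, 7.48 and 7.31 in control organoids (log2 fold change 0.92 ± 0.15). Ccng1, cyclin G, was at 11.24, 10.95, 11.01 and 11.06 in irradiated organoids, against 10.60, 10.67, 10.15 and 10.21 in control organoids (0.66 ± 0.12). Neither group pair overlapped, although a probe of Ccng1 with 0.40 was not called. The 4 others rose by 0.50 to 0.74. The Eda2r call was lost without irradiated replicate 1 (0.58, adjusted p = 0.0736), irradiated replicate 4 (0.58, 0.0824) or control replicate 1 (0.55, 0.0695). Mdm2, the ligase that degrades p53, had a log2 fold change of 0.44 and an adjusted p of 0.074 with its brightest probe, while its 2 other probes were called (0.68 and 0.48, adjusted p = 0.0454 and 0.00934). Without control replicate 1 the brightest Mdm2 probe was called too (0.60, adjusted p = 0.00377).

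**Figure D3:**
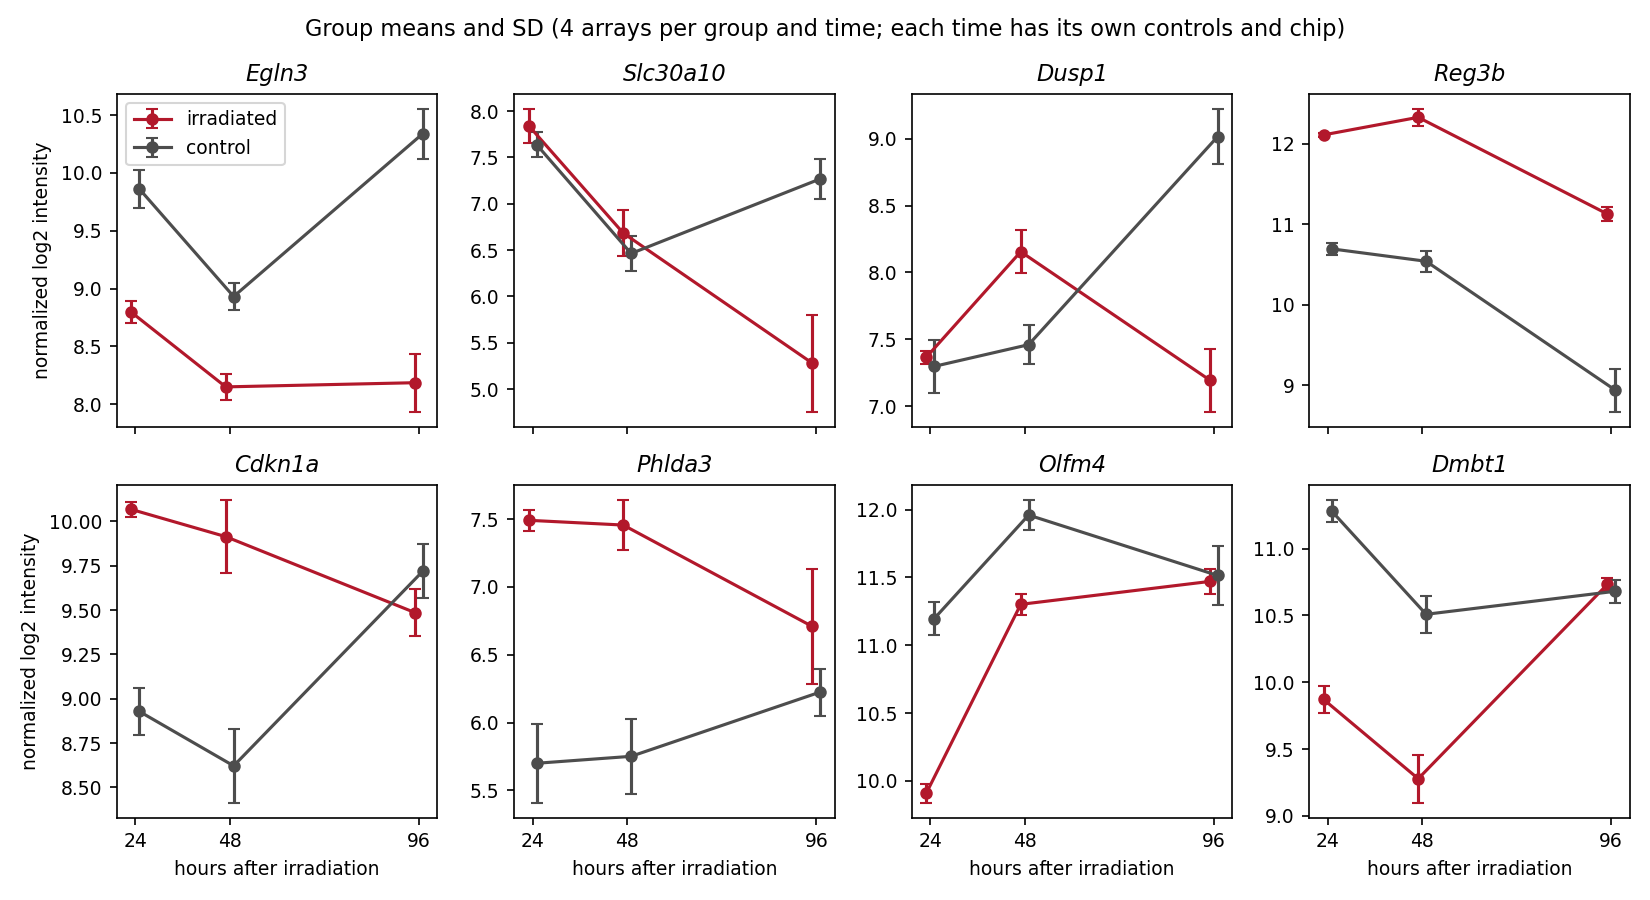
Mean normalized log2 intensity and SD of 8 genes in irradiated (red) and control (grey) organoids at 24 h, 48 h and 96 h, with points moved by 1 h to either side so that bars can be seen (4 arrays per point, each time on its own chip). The groups stand farthest apart at 96 h for Egln3, Slc30a10, Dusp1 and Reg3b, and closest together at 96 h for Cdkn1a, Phlda3, Olfm4 and Dmbt1.

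Mitosis genes that had been lower earlier were no longer called, and of the DNA replication genes Tk1 was called, as higher. Of 39 tested mitosis genes, 0 were higher and 0 lower at 96 h in limma at an adjusted p under 0.05, whereas 34 had been lower at 24 h and 14 at 48 h (background 12.5% and 6.25%). The effect was higher at 96 h than at 24 h for 26 of the 39 (background 4.51%). At an unadjusted p under 0.05, 1 mitosis gene was higher and 0 lower at 96 h. Top2a, a topoisomerase of dividing cells, was at 8.54, 8.17, 8.65 and 8.68 in irradiated organoids, against 8.44, 8.80, 7.73 and 8.02 in control organoids. Ccnb1, the cyclin of mitotic entry, had a log2 fold change of 0.03 at 96 h after -0.65 at 24 h (difference 0.68, limma adjusted p = 0.0106). Among 47 DNA replication genes, Tk1, which salvages thymidine, was the 1 called at 96 h, with a rise of 0.38 after a fall of 0.98 at 24 h (difference 1.36, limma adjusted p = 4.36e-06). Its call at 96 h was lost without any 1 of irradiated replicates 2, 3 and 4 and control replicates 3 and 4 (0.30 to 0.39, adjusted p between 0.0501 and 0.114). Of the 40 DNA repair genes and the 35 apoptosis genes tested, 0 were called. At an unadjusted p under 0.05, 10 DNA replication genes were higher and 0 lower, and the median log2 fold change of that list was 0.12. At that threshold 0 repair genes were higher and 0 lower, and 7 apoptosis genes were higher and 2 lower. Over all 10798 genes tested, 1894 were under that unadjusted threshold at 96 h, in either direction.

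Crypt base stem cells, which divide to renew the epithelium, are marked by Lgr5, a receptor for R-spondin, and Olfm4, a secreted glycoprotein. Of 28 tested genes of that list 1 was higher and 1 lower at 96 h (3.57% each, near the background of 1.72% and 3.39%), after 13 lower at 24 h and 8 at 48 h (background 12.5% and 6.25%). Lgr5 was at 8.17, 8.07, 8.14 and 8.04 in irradiated organoids, against 8.52, 9.03, 8.42 and 8.45 in control organoids. Its groups did not overlap, and the log2 fold change of -0.50 ± 0.13 (limma adjusted p = 0.0224) was smaller than the -1.47 at 24 h (difference 0.97, limma adjusted p = 0.00116). The Lgr5 call was lost without control replicate 2, the highest control (-0.36, adjusted p = 0.0664), irradiated replicate 3 (-0.51, 0.05) or irradiated replicate 4 (-0.48, 0.0670).

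Olfm4 was at 11.60, 11.37, 11.45 and 11.46 in irradiated organoids, against 11.49, 11.82, 11.34 and 11.40 in control organoids, with no difference found (log2 fold change -0.04 ± 0.10). It had been 1.29 lower at 24 h and 0.66 lower at 48 h on the log2 scale, and both differences passed the test (1.24 and 0.61, limma adjusted p = 9.79e-06 and 0.0173). Ascl2, the Wnt-driven master regulator of these cells, was at 0.23 at 96 h after a rise of 1.92 at 24 h (difference -1.70, limma adjusted p = 9.79e-06). Dmbt1, a mucosal scavenger glycoprotein, and Clca4, a chloride channel regulator, had been lower by 1.41 and 1.84 at 24 h and were at 0.05 and -0.15 at 96 h (differences 1.46 and 1.69, limma adjusted p = 2.25e-06 and 7.14e-05). Of 17 Wnt targets tested 3 were higher and 1 lower (17.6% and 5.88%, background 1.72% and 3.39%). The higher ones were Ccnd2, Cd44 and Ccnd1, with rises of 0.55, 0.53 and 0.30. Their count was 0 without irradiated replicate 4, 0 without control replicate 3, and 1 without irradiated replicate 3 or control replicate 4, and with median scaling it was 0.

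**Figure D4:**
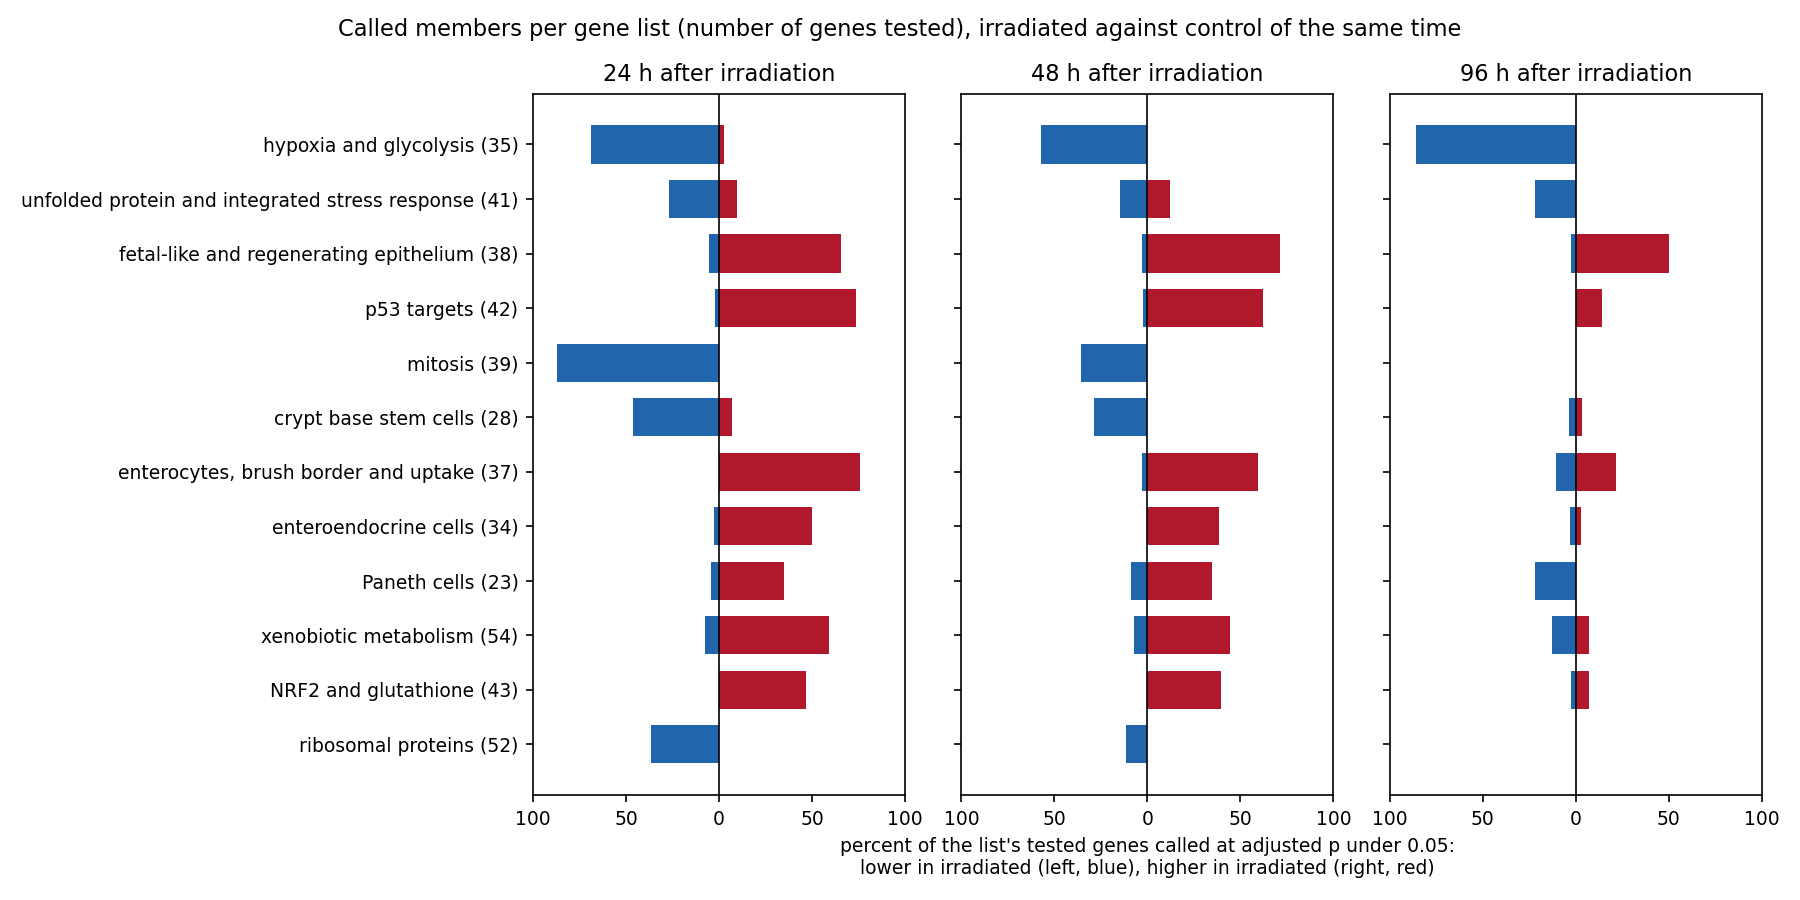
Percent of the tested genes of 12 lists that were called lower (blue, left) or higher (red, right) in irradiated organoids against controls of the same time, at 24 h, 48 h and 96 h. Hypoxia and glycolysis reach 85.7% lower at 96 h and fetal-like epithelium 50.0% higher, while mitosis and ribosomal proteins have no called gene at that time. The lists were written with earlier results of these data known.

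For enterocytes, goblet cells and enteroendocrine cells, fewer genes were called at 96 h than at 24 h or 48 h, as over all genes tested (5.11% at 96 h, after 23.7% at 24 h and 13.5% at 48 h). Of 37 tested enterocyte genes, which serve digestion and uptake at the brush border, 8 were higher and 4 lower (21.6% and 10.8%, background 1.72% and 3.39%), after 22 higher at 48 h and 28 at 24 h (background 7.3% and 11.2%). The effect was lower than at 24 h for 22 of them (background 6.95%). Mep1b, a subunit of the protease meprin, was at 9.24, 8.92, 9.18 and 9.28 in irradiated organoids, against 8.12, 8.13, 7.94 and 7.89 in control organoids (log2 fold change 1.14 ± 0.12). Tmigd1, an adhesion protein of the brush border, rose by 1.10. Krt20, the keratin of differentiated cells, was at 9.88, 9.84, 9.98 and 10.03 in irradiated organoids, against 9.19, 9.16, 9.21 and 9.17 in control organoids, a small rise of 0.74 ± 0.09 with no overlap. Slc2a2, the basolateral glucose transporter, rose by 0.57, and Slc15a1, the peptide transporter, by 0.58. With median scaling 2 genes of the list were higher and 8 lower, and the calls of Krt20, Slc2a2 and Slc15a1 were lost (0.44, 0.35 and 0.51, adjusted p = 0.0963, 0.30 and 0.0944). That of Slc15a1 was also lost without irradiated replicate 3 (0.54, adjusted p = 0.0574).

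The lower enterocyte genes were Espn, Ceacam20, Xpnpep2 and Dpp4. Espn, which bundles actin in microvilli, was at 5.90, 5.40, 5.11 and 5.01 in irradiated organoids, against 6.86, 6.79, 7.02 and 6.87 in control organoids. Its fall of 1.53 at 96 h differed from 0.44 at 24 h and 0.18 at 48 h (differences -1.97 and -1.71, limma adjusted p = 2.14e-05 and 0.000229), and a dim probe of Espn gave 0.25. Ceacam20 was not detected on any irradiated array and on all 4 control arrays, at least 1.32-fold lower in irradiated organoids. Calls of 3 of these genes depended on single arrays. Ceacam20 lost its call without any 1 of irradiated replicates 3 and 4 and control replicates 1, 3 and 4 (-0.81 to -0.99, adjusted p between 0.0527 and 0.115), Xpnpep2 without irradiated replicates 3 or 4 or control replicate 3 (0.0732, 0.0851 and 0.108), and Dpp4 without irradiated replicate 4 (0.0553). The list had 2 lower genes without irradiated replicate 3 and 1 without irradiated replicate 4. Fabp1, the liver-type fatty acid carrier of enterocytes, was at -0.44 (adjusted p = 0.14) after 0.78 at 24 h (difference -1.22, limma adjusted p = 0.00105), and it was called lower with median scaling (-0.74, adjusted p = 0.0143).

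Of 33 lipid absorption genes 2 were higher and 2 lower (6.06% each, background 1.72% and 3.39%), after 21 higher at 24 h (background 11.2%). The higher ones were Apoc2, a cofactor of lipoprotein lipase, and Ostb, a subunit of the bile acid exporter, with rises of 0.78 each. Among 22 genes of cholesterol synthesis 4 were lower and 0 higher (18.2% lower, background 3.39%), with a median of -0.26. Insig1, the sterol sensor that holds back this pathway and is itself one of its targets, was at 11.53, 11.61, 11.56 and 11.57 in irradiated organoids, against 12.04, 11.96, 12.02 and 12.05 in control organoids (log2 fold change -0.45 ± 0.08). Its groups were narrow and apart. The list had 2 lower genes without the 3 arrays with the fewest detected probes and 8 with median scaling. Of 30 tested genes that burn fatty acids or answer to PPAR factors, 4 were lower and 1 higher (13.3% and 3.33%, background 3.39% and 1.72%). That count fell to 1 lower gene without irradiated replicate 3, irradiated replicate 4 or control replicate 3 and to 2 without control replicate 1 or 4.

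Paneth cells, which secrete antimicrobial peptides at the crypt base, had 5 of 23 tested genes lower and 0 higher (21.7% lower, background 3.39%), with a median of -0.14, after 8 higher at each earlier time (background 7.3% at 48 h and 11.2% at 24 h). Lyz1, their lysozyme, was at 11.83, 12, 11.92 and 11.94 in irradiated organoids, against 12.13, 12.14, 12.30 and 12.40 in control organoids. The fall of 0.32 was small, and its call (limma adjusted p = 0.0472) was lost without any 1 of irradiated replicates 1, 3 and 4 and control replicates 3 and 4 (adjusted p between 0.0892 and 0.142). Pla2g2a, a secreted antibacterial phospholipase, was not detected on any irradiated array and on 3 of 4 control arrays (at least 1.19-fold lower), and Nupr1, a stress-induced chromatin gene that is also in the stress response list, fell by 0.85. The count of lower Paneth genes was 2 without irradiated replicate 3 or control replicate 3, and 3 without irradiated replicates 1 or 4 or control replicate 4.

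Goblet cells, which make mucus, had 3 of 28 tested genes higher and 1 lower (10.7% and 3.57%, background 1.72% and 3.39%). 1810010M01Rik was at 11.71, 11.76, 11.82 and 11.84 in irradiated organoids, against 10.47, 10.41, 10.76 and 10.32 in control organoids (log2 fold change 1.29 ± 0.11). Scin, an actin-severing protein, rose by 0.99 and Clca3, a secreted mucus protein, by 0.93, while Klk1, tissue kallikrein, fell by 0.79. The rise of Clca3 was not called with median scaling (0.63, adjusted p = 0.0682). Of 34 enteroendocrine genes 1 was higher and 1 lower (2.94% each, near the background), after 13 higher at 48 h and 17 at 24 h (background 7.3% and 11.2%). Chga, the granin of hormone granules, was at 10.41, 10.53, 10.51 and 10.87 in irradiated organoids, against 8.87, 10.31, 10.32 and 10.60 in control organoids, and was not called (log2 fold change 0.56 ± 0.32). Sct, the hormone secretin, fell by 1.12 and was not called without control replicate 3 (-0.94, adjusted p = 0.0593). Gip, an incretin hormone, rose by 0.38, and its call was lost without irradiated replicate 3 or control replicate 3 (0.34 each, adjusted p = 0.0681 and 0.0679). Of 17 tuft cell genes 3 were lower (17.6%, background 3.39%), after 3 lower and 1 higher at 48 h and 1 of each at 24 h, and Kctd12, a receptor-associated protein, was the one whose call held with every single array left out (fall of 0.84). The count of lower tuft genes was 1 without irradiated replicate 3 or control replicate 1.

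Fewer detoxification genes were higher at 96 h than at the earlier times, as was so for all genes tested. Of 54 xenobiotic metabolism genes 4 were higher and 7 lower at 96 h (7.41% and 13.0%), after 24 higher at 48 h and 32 at 24 h. Over all genes tested, 1.72% were higher and 3.39% lower at 96 h, after 7.3% higher at 48 h and 11.2% at 24 h. Without irradiated replicate 3 the lower count was 4, and without irradiated replicate 4 the higher count was 2. Cyp2c29, a P450 epoxygenase, was at 9.90, 9.94, 9.68 and 10.05 in irradiated organoids, against 8.58, 8.58, 8.95 and 8.71 in control organoids. Its effects of 1.19 at 96 h, 1.25 at 48 h and 0.98 at 24 h did not differ by the test. Of 43 genes of NRF2 and glutathione 3 were higher and 1 lower (6.98% and 2.33%, background 1.72% and 3.39%), after 20 higher at 24 h (background 11.2%). With single arrays left out the higher count ran from 2 to 6. It was 6 without irradiated replicate 2 or control replicate 2 and 5 without control replicate 1. Oxidative phosphorylation (42 genes), ribosomal proteins (52 genes), histones (48 genes), interferon response (21 genes) and MHC genes (11 genes) had 0 called genes at 96 h in limma. At an unadjusted p under 0.05 the higher and lower counts were 1 and 0 for oxidative phosphorylation, 1 and 1 for ribosomal proteins, 0 and 2 for histones, 0 and 2 for interferon response, and 1 and 0 for MHC genes. The background in either direction was 1894 of 10798 genes tested. The histone list spread widely within groups. Its medians were 9.59, 10.23, 10.17 and 10.64 on the irradiated arrays and 8.76, 9.94, 10.50 and 10.72 on the control arrays. With that spread, 0 calls do not show that histone genes were unchanged.

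Most markers of other cell types were near background or had no probe that passed the detection filter, with Acta2 and, less so, Esam above it. Of 14 tested epithelial markers 1 was called, Krt20. Of the mesenchymal markers 3 of 18 with a probe passed the detection filter, and their median level lay between 5.07 and 5.81 on irradiated arrays and between 4.97 and 5.68 on control arrays. Acta2, smooth muscle actin, lay well above background in both groups, at 10.05, 10.38, 10.51 and 11.17 in irradiated organoids, against 9.64, 10.38, 10.25 and 10.75 in control organoids, and the groups overlapped. The other 2, Vim and Tagln, were between 4.65 and 5.81 in irradiated organoids and between 4.83 and 5.68 in control organoids. Of the immune markers 5 of 17 passed, with a median of 5.01 to 5.62 on irradiated arrays and 5.30 to 6.04 on control arrays. Of the endothelial markers 4 of 12 passed, the highest being Esam at 6.44 to 6.87 on irradiated arrays and 6.00 to 7.43 on control arrays, and of the erythroid markers 1 of 10. Laptm5, a lysosomal protein of blood cells, and Epb4.2, an erythrocyte membrane protein, fell by 0.91 and 0.74, both from probes near background. Their part in other results was not tested.

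Other genes described here were measured on only some arrays of 1 group, so their fitted fold changes rest partly on signals at background. Ak3l1 and Slc39a14 were detected on 1 of 4 irradiated arrays, Slc30a10, Upk3b, Espn and Laptm5 on 2, and P4ha2 and Trib3 on 3, all with detection on every control array. Epb4.2 was detected on 1 of 4 irradiated arrays. Mup5, Mup2 and Lor were detected on 3 of 4 control arrays, Il1rn and Ostb on 2, and Mal and Tmigd1 on 1, all with detection on every irradiated array. Slc15a1 was detected on 3 irradiated arrays and 1 control array.

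The genes of 96 h overlapped with those of the earlier times to different degrees. The comparisons at 24 h, 48 h and 96 h share no arrays, but normalization and the spread of each gene were taken over all 24 arrays together. Their overlap is therefore not independent agreement. Of the 186 higher genes, 129 were also higher at 48 h (69.4% of the 96 h genes and 16.4% of the 48 h genes) and 121 at 24 h (65.1% and 10.0%). Of the 366 lower genes, 136 were also lower at 48 h (37.2% and 20.1%) and 120 at 24 h (32.8% and 8.86%). Over all genes tested, 7.3% were higher and 6.25% lower at 48 h, and 11.2% and 12.5% at 24 h. At all 3 times 109 genes were higher and 78 lower. Called at 96 h and at neither earlier time were 36 of the higher genes (19.4%) and 147 of the lower ones (40.2%). Of the 366 lower genes 37 had been higher at 24 h and 16 at 48 h, beside 11.2% and 7.3% of all genes tested.

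The effect itself differed between 96 h and 24 h for 1238 genes (11.5%), lower at 96 h for 751 (6.95%) and higher for 487 (4.51%). Between 96 h and 48 h it differed for 381 genes (3.53%), of which 293 were lower (2.71%) and 88 higher (0.815%). Among genes with a gene name, large decreases against 48 h were those of Dusp1, Slc30a10, Oasl1 and Mbl2. Oasl1, an antiviral gene, had effects of -0.66 at 96 h and 1.24 at 48 h (difference -1.91, limma adjusted p = 0.00113). Mbl2, a mannose-binding lectin of plasma, had irradiated means of 7.62, 7.21 and 5.34 at 24 h, 48 h and 96 h, and was detected on 4, 4 and 2 irradiated arrays, against 0, 1 and 0 control arrays. The fitted differences passed the test (limma adjusted p = 0.000178 against 48 h and 3.72e-06 against 24 h), but with controls at background they are no measured folds. Neither gene was called at 96 h itself (adjusted p = 0.11 and 0.0524). Oasl1 was called without control replicate 2 (-0.80, adjusted p = 0.0459), and Mbl2 without irradiated replicate 4 (adjusted p = 0.00980) or control replicate 1 (0.0130).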

How the data were processed

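Intensities per probe and detection p-values of 24 Illumina bead arrays were used as deposited. The intensities are mean signals per the file headers, and their quantiles differ between arrays, as unnormalized values would. No label or header names the scanner software or a genome build (not given in the sources used here). As an alternative source, the authors' deposited processed intensities, quantile normalized as their values show, were read too.

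With limma 3.58.1 in R 4.3.3, normexp used the detection p-values to correct background (offset 16), after which all 24 arrays were quantile normalized and logged (log2). The filter asked for a detection p under 0.05 on at least 4 arrays, which 15056 of 25697 probes met. Each of the 10798 genes tested is represented by its brightest such probe. Symbols are those of the file, and 14307 of 18138 were current in RefSeq, 2927 matched an older symbol and 904 did not match. Group means were fitted over all arrays with lmFit and eBayes (18 residual and 4.1 prior degrees of freedom), and p-values were adjusted by Benjamini-Hochberg. Contrasts were irradiated minus control at 96 h, and that effect minus the one at 24 h or 48 h. The fit was tested on simulated data.

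Members and 39 gene lists were chosen with earlier results of these data known. Genes named were the 10 largest non-overlapping rises and falls, fixed lineage and damage genes, the 3 most changed called members per list, and the 5 largest changes between times in each direction, clone-type names aside. The single glycolysis genes (Aldoa, Gapdh, Ldha, Pfkfb3, Pfkfb4, Pfkl, Pgam1, Pgk1), Atf3, Atf4, Atf5, Asns, Il1rn, Anxa3, Lgals3, Mal, Tm4sf4, the Reg genes other than Reg3b, Eda2r, Pdrg1, Ccnd1, Slc2a2, Slc15a1, Ceacam20, Xpnpep2, Dpp4, Klk1, Mt1, Mt2, Acta2, Vim, Tagln, Esam, Anxa13, Adm, Aldoc, Bnip3l, Car9, Egln1, Ero1l, Higd1a, Ndrg1, Pdk1 and Slc2a1 fell outside that rule and were chosen after their values were seen. Some genes that the rule names are not reported here. Mki67, Muc2, Alpi and Clu had no probe here, and Dclk1 was detected on fewer than 4 arrays. Alternatives covered background, normalization, filters, the samples in the fit, variances, thresholds, the replicate block, a depth covariate and single arrays left out.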

Additional observations from a re-analysis of the deposited data

Results flagged for a closer look

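Dixon's test was run on the 4 irradiated and on the 4 control values of the genes named here, 264 groups in all, and 16 groups held 1 array far from the other 3. Chance alone gives such an array in about 1 in 20 groups. Among irradiated arrays these were Ero1l at 8.73 (log2) in replicate 3, Ldha at 11.12 (log2) in replicate 3, Atf3 at 5.21 (log2) in replicate 2, Sprr1a at 8.82 (log2) in replicate 1, Ccnb1 at 7.91 (log2) in replicate 1 and Dmbt1 at 10.80 (log2) in replicate 1. Among control arrays these were Higd1a at 7.76 in replicate 2, Egln1 at 7.19 in replicate 1, Slc2a1 at 11.18 in replicate 4, Pfkfb3 at 6.12 in replicate 1, Upk3b at 7.90 in replicate 1, Reg3a at 10.35 in replicate 3, Lgr5 at 9.03 in replicate 2, Chga at 8.87 in replicate 1, Mt1 at 12.90 in replicate 3 and Aldh1l2 at 5.81 in replicate 2.

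The irradiation effect differed between 96 h and 24 h and was lower at 96 h for 51 named genes, by limma's test of the difference itself. On the log2 scale the differences, 96 h minus 24 h, were -2.43 for Mbl2, -2.19 for Slc30a10, -1.97 for Espn, -1.89 for Dusp1, -1.70 for Ascl2, -1.64 for Areg, -1.53 for Sct and -1.50 for Plk2. They were -1.49 for Oasl1, -1.41 for Ctrb1, -1.37 for Cdkn1a, -1.32 for Upk3b, -1.32 for Plod2, -1.31 for Phlda3, -1.26 for Pfkfb4 and -1.22 for Fabp1. Smaller differences were -1.18 for Mpp4, -1.17 for Mcam, -1.10 for Ly6a, -1.10 for Eda2r, -1.08 for Egln3, -1.08 for Xpnpep2, -1.06 for Il17rb and -0.98 for Atf3. Next came -0.96 for Slc2a2, -0.95 for Aldoc, -0.95 for Dpp4, -0.89 for Adm, -0.85 for Scd1, -0.85 for Epb4.2, -0.84 for Anxa3 and -0.81 for Trp53inp1. Further ones were -0.80 for Slc15a1, -0.79 for Ndrg1, -0.78 for Ang, -0.76 for Vegfa, -0.76 for Clca3, -0.74 for Reg3a, -0.73 for Anxa1 and -0.72 for Klk1. Then followed -0.69 for Lyz1, -0.68 for Pla2g2a, -0.67 for Kctd12, -0.65 for Reg1, -0.63 for Car9, -0.62 for Il18, -0.62 for Krt20 and -0.59 for Gapdh. The remaining ones were -0.54 for Ostb, -0.53 for Bax and -0.45 for Reg3g.

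The irradiation effect differed between 96 h and 24 h and was higher at 96 h for 12 named genes, by limma's test of the difference itself. On the log2 scale the differences, 96 h minus 24 h, were 1.69 for Clca4, 1.46 for Dmbt1, 1.36 for Tk1, 1.24 for Olfm4, 1.22 for Efemp1, 1.2 for Sftpd, 1.02 for Top2a and 0.97 for Lgr5. They were 0.90 for Il33, 0.77 for Reg3b, 0.68 for Ccnb1 and 0.44 for Mup5.

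The irradiation effect differed between 96 h and 48 h and was lower at 96 h for 40 named genes, by limma's test of the difference itself. On the log2 scale the differences, 96 h minus 48 h, were -2.52 for Dusp1, -2.21 for Slc30a10, -1.91 for Oasl1, -1.77 for Mbl2, -1.71 for Espn, -1.71 for Plod2, -1.69 for Ceacam20 and -1.55 for Chac1. They were -1.52 for Cdkn1a, -1.50 for Nupr1, -1.41 for Ctrb1, -1.37 for Egln3, -1.36 for Aldh1l2, -1.32 for Sprr1a, -1.31 for Pla2g2a and -1.27 for Mcam. Smaller differences were -1.26 for Mpp4, -1.22 for Phlda3, -1.22 for Apoc2, -1.21 for Slc39a14, -1.17 for Eda2r, -1.12 for Cd86, -1.10 for Slc16a3 and -1.06 for Ak3l1. Next came -1.03 for Areg, -0.97 for Fabp1, -0.96 for Slc15a1, -0.93 for Atf3, -0.91 for Ero1l, -0.91 for Scd1, -0.89 for Adm and -0.79 for Vegfa. Further ones were -0.77 for Slc2a1, -0.77 for Bax, -0.76 for Ndrg1, -0.67 for Ostb, -0.62 for Gapdh, -0.60 for Reg3a, -0.48 for Reg1 and -0.48 for Krt20.

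The irradiation effect differed between 96 h and 48 h and was higher at 96 h for 4 named genes, by limma's test of the difference itself. On the log2 scale the differences, 96 h minus 48 h, were 1.28 for Dmbt1, 1.04 for Clca4, 0.80 for Tk1 and 0.61 for Olfm4.

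These differences are fitted values. For 11 of those against 24 h and 8 of those against 48 h, a group was not detected on any array, so they are no measured folds. Against 24 h these were Adm, Atf3, Mpp4, Il33, Pla2g2a, Il17rb, Mbl2, Epb4.2, Plod2, Sftpd and Efemp1. Against 48 h these were Ak3l1, Slc16a3, Adm, Mpp4, Ceacam20, Pla2g2a, Mbl2 and Aldh1l2.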

How the results depend on the processing

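Of 131 named genes, 105 were called at 96 h, 85 of these with every single array left out and 20 not with some. With single arrays left out, the counts at 96 h were 127 to 253 higher and 248 to 504 lower, those of the change from 24 h 398 to 622 higher and 632 to 842 lower, and those of the change from 48 h 51 to 124 higher and 215 to 347 lower. The difference in detected probes was -1296 to -492.1 in the same way, beside -874.2 with all arrays. Without background correction, with an offset of 50, cyclic loess, quantile normalization within each chip, the authors' processed values, other detection filters, trended variances or the mean of a gene's probes, the counts at 96 h stayed within 1.5 times the main ones. Counts at 96 h outside that range were, higher and lower, 71 and 559 with median scaling, 52 and 113 with the 8 arrays at 96 h in the fit, 51 and 117 with these processed and fitted alone, 105 and 210 with array weights, 92 and 193 at an adjusted p under 0.01, 54 and 113 with limma's treat against a fold of 1.2, and 85 and 139 without the 3 arrays with the fewest detected probes. For the change from 24 h, the higher counts were 301 with median scaling, 283 with cyclic loess, 166 at 0.01, 865 at an adjusted p under 0.1, 82 with treat and 265 without the 3 arrays. The lower counts were 172 with median scaling, 409 at 0.01 and 283 with treat. For the change from 48 h, the higher counts were 3 with median scaling, 12 at 0.01, 193 at 0.1, 3 with treat and 26 without the 3 arrays, and the lower counts 121, 129, 448, 87 and 151. Of the calls of named genes, 34 were lost with the 8 arrays at 96 h in the fit, 32 with these processed and fitted alone, 33 without the 3 arrays, 31 with treat, 20 at an adjusted p under 0.01 and 18 with array weights. Median scaling ended 19, gained 4 and reversed 1, Ccnd1 (-0.011, adjusted p = 0.976). Fits of fewer arrays have fewer degrees of freedom and estimate the spread anew, and the cause of the shifts was not tested. Deviations from group means correlated at 0.382, -0.408, -0.336 and 0.456 between irradiated and control samples of the same replicate number. Between different numbers the correlations ran from -0.525 to 0.418, so these values do not settle whether replicate numbers pair the samples. With the replicate block 138 genes were higher and 273 lower at 96 h, 415 and 685 against 24 h, and 42 and 223 against 48 h. With 4 arrays a group and signals near background for dim probes, small differences could not be measured.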

Other observations

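Some genes outside the lists also differed at 96 h and were chosen after their values were seen. Plod2, a lysyl hydroxylase of collagen, was at 5.47, 5.49, 5.20 and 5.69 in irradiated organoids, against 6.91, 6.84, 6.74 and 7.24 in control organoids. The groups were well apart, with a fitted log2 fold change of -1.47 ± 0.13, and the gene was detected on 2 irradiated and 4 control arrays. At 24 h Plod2 was detected on 0 irradiated arrays and 1 control array. Aldh1l2, an enzyme of mitochondrial folate metabolism, was not detected on any irradiated array and on all 4 control arrays, at least 1.67-fold lower in irradiated organoids. At 48 h Aldh1l2 was detected on 0 irradiated arrays and 1 control array. Pnliprp1, a pancreatic lipase relative, fell by 1.27, and its call was lost without the 3 arrays with the fewest detected probes (-0.82, limma adjusted p = 0.243).

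Sftpd, a collectin of lung and gut surfaces, was at 7.01, 7.26, 6.65 and 6.28 in irradiated organoids, against 5.81, 5.26, 4.99 and 5.6 in control organoids. Efemp1, an extracellular matrix glycoprotein, was at 6.11, 7.12, 6.68 and 5.83 in irradiated organoids, against 5.08, 4.97, 5.35 and 5.0 in control organoids. The fitted rises were 1.38 for Sftpd and 1.34 for Efemp1, detected on every irradiated array and on 3 and 1 control arrays, and neither was detected on any array at 24 h. Mcam, an adhesion molecule, and Cd86, a costimulatory ligand, rose by 1.10 and 0.97, less than at 48 h (2.37 and 2.08, differences -1.27 and -1.12, limma adjusted p = 0.027 and 0.017). A dimmer probe of Mcam gave 0.45 and was not called. Mcam was detected on 2 of 4 control arrays at 96 h and on every irradiated array. Without the 3 arrays with the fewest detected probes, the calls of Mcam and Cd86 were lost (1.07 and 0.76, limma adjusted p = 0.0902 and 0.148).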
